A study of Mus musculus with 12 samples.

Results

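This account follows 40 genes of the cell division cycle through 12 RNA sequencing libraries of mouse tumours. The genes were found by name, with no cut on their values, as the rows of the expression table whose symbol is on a list of 16 genes of DNA replication and S phase entry (Ccne1, Ccne2, Mcm2 to Mcm7, Pcna, Rrm1, Rrm2, Tyms, E2f1, Cdc6, Cdt1 and Gins2), 23 genes of mitosis (Mki67, Top2a, Ccna2, Ccnb1, Ccnb2, Cdk1, Cdc20, Cdc25c, Plk1, Aurka, Aurkb, Bub1, Bub1b, Birc5, Cenpa, Cenpe, Cenpf, Kif11, Kif20a, Kif23, Nusap1, Tpx2 and Ube2c), and Ccnd1, the cyclin of G1. Each symbol matched 1 row, so the members were 40 of 55401 genes in the table, and all 40 were at 1 FPKM or more in at least 3 libraries, the limit that left 15813 genes for testing. FPKM, fragments scaled by transcript length and library size, is a level per length, so it can be set side by side between genes.

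The samples were labelled as orthotopic oral tumours of C57BL/6 mice injected with MTC-Q1 cells, a mouse oral cancer line. Mice of the 4 groups were treated with control IgG (Ctrl-IgG), an antibody that blocks the CSF1 receptor of macrophages (aCSF1R), interleukin-10 joined to an Fc domain (IL-10-Fc), or BF10, which joins interleukin-10 to the CSF1R antibody, with 3 libraries per group. The labels give the number of doses as 4 in one place and as 6 in another, state no age, and do not say whether the 3 libraries of a group came from separate mice, so that p-values here measure the spread between these libraries. The RNA came from pieces of tumour that hold cancer cells and host cells together. In such bulk RNA, fewer dividing cells and less message per dividing cell cannot be told apart.

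Differences between libraries that the treatment labels do not give bear on every value below. The Ctrl-IgG and aCSF1R libraries held at most 0.04 FPKM of Xist, at most 0.27 of H2-Ea and at most 0.28 of Krt8, whereas the IL-10-Fc and BF10 libraries held at least 17.1, 553 and 169 FPKM of these genes. All 5 of 5 simple epithelium markers were at 1 FPKM or more in every IL-10-Fc and BF10 library, with a summed level of 511 to 1347 FPKM, against 0.860 to 8.86 FPKM in Ctrl-IgG and aCSF1R. The 7 fibroblast markers summed to 1018 to 2329 against 166 to 614 FPKM, the 8 macrophage markers to 799 to 1248 against 241 to 768 and the 6 neutrophil markers to 496 to 4507 against 30.8 to 337. In a comparison of IL-10-Fc or BF10 with Ctrl-IgG or aCSF1R, treatment and this difference cannot be told apart, and the part of the other cell types was not tested. In Xist, H2-Ea and Krt8 the libraries of aCSF1R resemble those of Ctrl-IgG and the libraries of BF10 those of IL-10-Fc, and each such pair of groups is called a side. Eif2s3y was less clean. It was at 4.23 to 11.3 FPKM in Ctrl-IgG and aCSF1R and at most 0.05 FPKM in IL-10-Fc and BF10, except for 3.29 FPKM in BF10 replicate 3. Within the sides the markers of other cells differed too. The macrophage markers summed to 241 to 268 FPKM in aCSF1R against 411 to 768 in Ctrl-IgG. In BF10 replicates 2 and 3 the 8 T cell markers summed to 73.7 and 61.4 FPKM and the 5 B cell markers to 150 and 84.1, whereas the IL-10-Fc libraries held 18.6 to 28.2 and 0.63 to 2.56 FPKM. Keratinocyte markers, expected of oral tissue, summed to 1432 to 1555 FPKM in Ctrl-IgG replicate 3 and aCSF1R replicates 1 and 2 and to at most 19.1 FPKM in the other 9 libraries. A second difference cut across the groups. In BF10 replicate 1, Ctrl-IgG replicate 2 and replicates 1 and 2 of IL-10-Fc the mitochondrial genes took 6.57% to 9.04% of the summed FPKM, against 2.99% to 3.61% in the other 8 libraries. These 4 libraries are called the high-share libraries below, a name taken from the data and not from the labels. Their titles carry the codes 1, 2 and 4, those of the other libraries 1, 3, 5, 6 and 7, and the meaning of the code is not stated. They also had a higher FPKM sum (819001 to 976950 against 637596 to 701275), fewer genes at 1 FPKM or more (12575 to 13313 against 13751 to 14603) and a lower FPKM-weighted mean GC content of the transcripts (46.8% to 47.8% against 49.1% to 49.7%). The relative depth, read from the steps between low values, ranged from 0.940 to 1.40.

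As background, a cell commits to division when cyclin D and then cyclin E kinases release E2F factors, which switch on the genes of S phase. Origins are licensed by Cdc6 and Cdt1, which load the MCM helicase, and the fork then needs the clamp Pcna and deoxynucleotides made by ribonucleotide reductase and thymidylate synthase. The mitotic genes come on later, under complexes that act at the cell cycle genes homology region (CHR), and their products drive spindle assembly, chromosome attachment and the destruction of cyclin B at anaphase. In tumours these genes are read as marks of proliferation, with Mki67 and Top2a the best known.

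The promoters of the members show this division of labour. RefSeq promoter sequences (build GRCm38.p6, 250 bases before to 50 after the start) were found for 31 of the 39 S phase and mitotic genes. The letters of a CHR (TTTGAA or TTCGAA, on either strand) stood in 14 of 18 mitotic promoters (77.8%), in 2 of 14 S phase promoters (14.3%; Mcm7 has 2 promoters) and in 19.2% of all 32851 promoters in the table. The letters of an E2F site (TTTCCCGC, TTTGGCGC, TTTGCGCC or TTTCGCGC, on either strand, which can overlap each other) stood in 6 of 14 S phase promoters (42.9%), in 1 of 18 mitotic ones (5.56%) and in 2.25% of all. CCAAT, the letters of an NF-Y site, stood in 64.3% of the S phase promoters, 88.9% of the mitotic ones and 37.4% of all. A match of letters is a description and not evidence of binding. Mcm5, a subunit of the helicase, and Cdk1, the kinase of mitotic entry, are shown as examples that hold E2F and CHR letters. Other members do not, such as Rrm2, an S phase gene without E2F letters, and Ccnb1, a mitotic gene without CHR letters. The 250 bases before the start are given 5′ to 3′ on the strand of the gene, with matches to the motifs in capitals, at chr8:75109259-75109508 on the plus strand for Mcm5 and chr10:69352913-69353162 on the minus strand for Cdk1.
Mcm5: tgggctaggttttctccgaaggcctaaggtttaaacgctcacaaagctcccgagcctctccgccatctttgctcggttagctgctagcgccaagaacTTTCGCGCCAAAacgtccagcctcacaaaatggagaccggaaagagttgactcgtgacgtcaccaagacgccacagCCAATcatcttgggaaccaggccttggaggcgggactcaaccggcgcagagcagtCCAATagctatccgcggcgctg
Cdk1: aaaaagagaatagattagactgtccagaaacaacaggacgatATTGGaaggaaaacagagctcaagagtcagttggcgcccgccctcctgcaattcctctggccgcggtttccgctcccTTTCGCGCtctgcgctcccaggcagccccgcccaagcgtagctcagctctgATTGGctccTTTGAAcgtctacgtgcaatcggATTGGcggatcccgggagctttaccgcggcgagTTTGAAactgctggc
In Mcm5 the overlapping E2F letters begin 153 and 149 bases before the start and CCAAT stands at 77 and 22 bases. In Cdk1 the CHR letters begin 71 and 15 bases before the start, and it is also the mitotic promoter that holds E2F letters, at 131 bases.

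All 40 genes were expressed in every library. Pcna had the highest median over the 12 libraries, 320 FPKM, followed by Top2a at 213 and Cdk1 at 186. Ccne1 had the lowest, at 8.99 FPKM. The map of all members by library shows both differences named above, the step between the pairs of groups (Rrm2, Tpx2, Aurka and Cenpf) and the separation of the high-share libraries inside the groups.

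**Figure D1:**
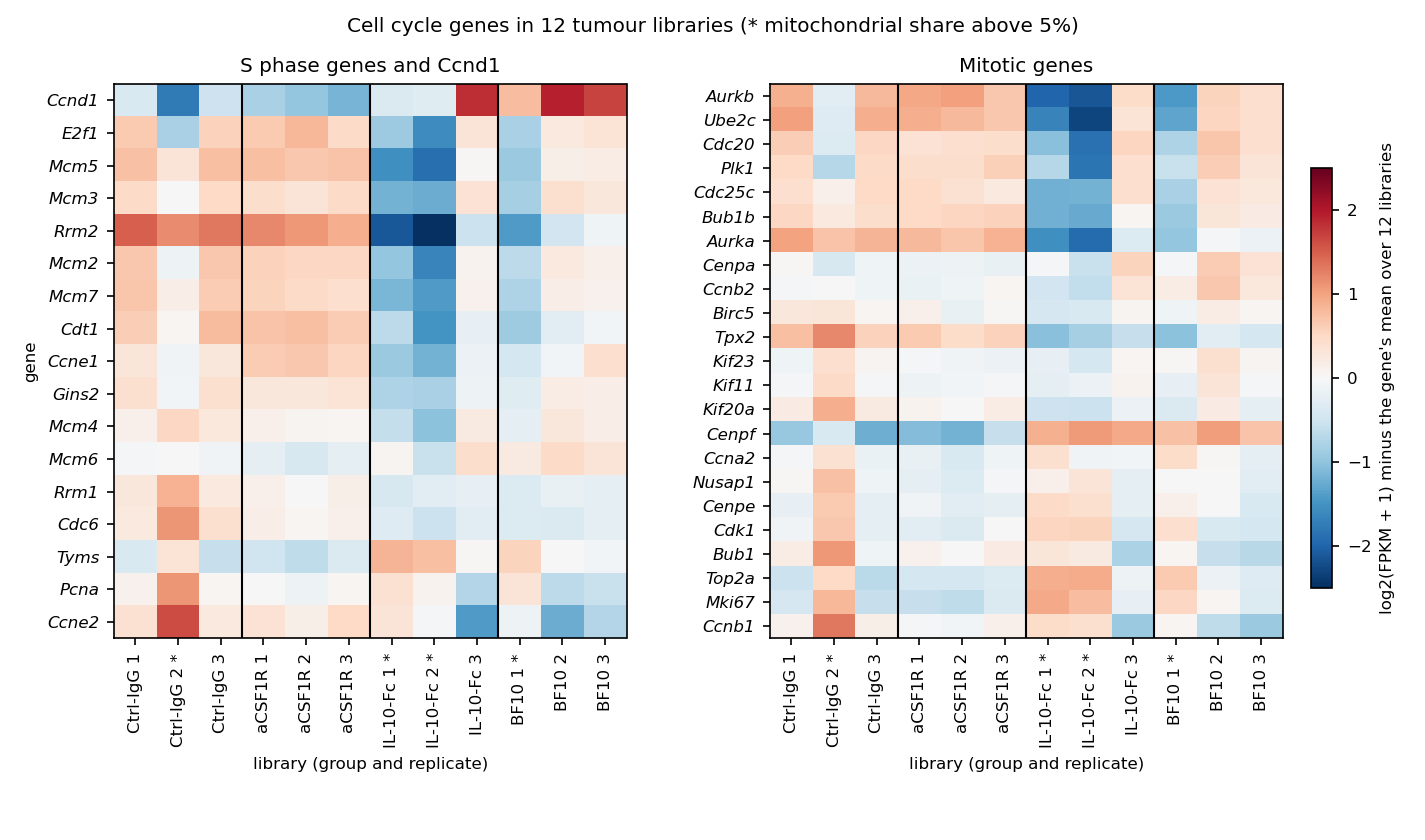
Level of each of the 40 genes (rows) in each of the 12 libraries (columns, by group and replicate) as log2(FPKM + 1) minus the gene's mean over the 12 libraries, with S phase genes and Ccnd1 on the left and mitotic genes on the right. Asterisks mark the 4 libraries whose mitochondrial share is above 5%, in which genes at the top of each panel lie low and genes at the bottom lie high within their group.

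Inside the groups, the high-share libraries lay above the others in some cell cycle genes and below them in others, as they did over all tested genes. In 10 genes, Ccne2, Ccnb1, Mki67, Top2a, Pcna, Bub1, Cdk1, Tyms, Cenpe and Nusap1, every high-share library lay above every other library of its group in all 3 groups that hold one. In 18 genes, Aurkb, Ube2c, Ccnd1, Cdc20, E2f1, Plk1, Mcm5, Mcm3, Rrm2, Cdc25c, Mcm2, Mcm7, Bub1b, Aurka, Cdt1, Ccne1, Cenpa and Gins2, every one lay below. The remaining 12 did neither. Of all 15813 tested genes, 17.7% lay above and 45.9% below in this way, so the members' counts are near those of other genes. Because the 4 libraries were picked by their mitochondrial share, these counts are a description with no test.

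Mki67, the Ki-67 proliferation marker, was at 31.1, 74.9 and 27.6 FPKM in Ctrl-IgG, 27.8, 26.8 and 32.4 in aCSF1R, 60.1, 43.4 and 33.0 in BF10 and 82.0, 72.5 and 36.2 in IL-10-Fc. Top2a, the topoisomerase that untangles chromosomes, was at 171, 352 and 156 FPKM in Ctrl-IgG, 184, 183 and 196 in aCSF1R, 393, 226 and 200 in BF10 and 470, 477 and 227 in IL-10-Fc. In both, Ctrl-IgG replicate 2 lay far above the rest of its group. Plk1, the kinase that starts mitotic entry and centrosome maturation, was at 44.5, 18.7 and 43.9 FPKM in Ctrl-IgG, 42.8, 42.7 and 48.0 in aCSF1R, 20.9, 48.3 and 39.6 in BF10 and 18.6, 8.06 and 42.2 in IL-10-Fc. Aurkb, the catalytic subunit of the chromosomal passenger complex, was at 72.4, 31.9 and 68.5 FPKM in Ctrl-IgG, 76.0, 78.8 and 61.8 in aCSF1R, 13.6, 57.2 and 51.9 in BF10 and 8.92, 7.93 and 53.1 in IL-10-Fc. In Plk1 and Aurkb the same library was the lowest of its group, and IL-10-Fc replicates 1 and 2 were the lowest of all 12. Ccnb1, the cyclin B that binds Cdk1, was at 115, 269 and 118 FPKM in Ctrl-IgG, 104, 101 and 117 in aCSF1R, 111, 68.2 and 55.5 in BF10 and 147, 141 and 55.8 in IL-10-Fc. Ube2c, the ubiquitin-conjugating enzyme that marks cyclin B for destruction, was at 149, 58.4 and 137 FPKM in Ctrl-IgG, 138, 129 and 118 in aCSF1R, 28.5, 107 and 98.9 in BF10 and 22.2, 14.0 and 93.4 in IL-10-Fc. Ccnb1 and Ube2c thus lay on opposite sides in each of the 3 groups. Within the S phase genes the same was seen of Pcna, the sliding clamp, at 335, 665 and 319 FPKM in Ctrl-IgG, 311, 283 and 321 in aCSF1R, 386, 196 and 209 in BF10 and 401, 328 and 186 in IL-10-Fc. Mcm2, a helicase subunit, was at 75.9, 43.4 and 75.9 FPKM in Ctrl-IgG, 70.9, 68.0 and 68.3 in aCSF1R, 29.6, 56.5 and 51.5 in BF10 and 23.9, 14.3 and 50.1 in IL-10-Fc. Both are used at the same replication forks, yet in Ctrl-IgG replicate 2 Pcna was the highest and Mcm2 the lowest of its group.

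The direction followed the GC content of the transcript, taken from the longest coding transcript of each gene. The 10 genes above had a median GC content of 43.8% (36.3% to 47.8%) and the 18 genes below one of 52.6% (46.0% to 58.8%). Across the 40 genes, the mean difference between high-share and other libraries of a group correlated with GC content with a Pearson r of -0.775 and a Spearman rho of -0.776. The value was -0.758 over the 16 S phase genes and -0.827 over the 23 mitotic genes, so it was seen within each class. Over the 15795 tested genes with a transcript sequence r was -0.496. Transcript length went the opposite way in members and in all genes, with an r of 0.432 against log2 length in the 40 genes and -0.253 in all tested genes. These correlations run across genes that share the same 12 libraries and are not replicates, so no p is given.

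To show what separates these transcripts, the first 150 coding bases are given from the GENCODE M21 transcripts on GRCm38, with G and C in capitals, for the 2 genes with the lowest and the 2 with the highest mean difference. Aurkb lies on the plus strand at chr11:69045647-69051664 and Ube2c on the plus strand at chr2:164769898-164778822. Ccnb1 lies on the minus strand at chr13:100778650-100786570 and Ccne2 on the plus strand at chr4:11191351-11204779.
Aurkb: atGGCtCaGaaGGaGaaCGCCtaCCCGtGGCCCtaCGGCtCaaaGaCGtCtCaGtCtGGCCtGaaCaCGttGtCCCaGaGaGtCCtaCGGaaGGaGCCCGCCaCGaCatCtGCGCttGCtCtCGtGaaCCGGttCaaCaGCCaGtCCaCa
Ube2c: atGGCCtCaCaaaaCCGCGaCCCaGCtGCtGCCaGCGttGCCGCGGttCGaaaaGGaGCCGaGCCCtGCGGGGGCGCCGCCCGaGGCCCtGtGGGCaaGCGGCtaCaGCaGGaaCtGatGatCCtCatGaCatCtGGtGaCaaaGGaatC
Ccnb1: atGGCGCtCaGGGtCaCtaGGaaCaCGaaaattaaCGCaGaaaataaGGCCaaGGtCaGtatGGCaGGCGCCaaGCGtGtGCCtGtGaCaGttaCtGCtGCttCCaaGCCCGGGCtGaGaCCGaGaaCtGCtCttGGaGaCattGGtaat
Ccne2: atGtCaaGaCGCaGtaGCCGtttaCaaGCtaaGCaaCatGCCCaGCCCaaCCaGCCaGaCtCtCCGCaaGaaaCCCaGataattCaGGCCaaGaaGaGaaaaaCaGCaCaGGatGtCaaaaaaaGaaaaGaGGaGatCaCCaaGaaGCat
G and C make up 59.3% of the bases shown for Aurkb, 63.3% for Ube2c, 52.7% for Ccnb1 and 46.0% for Ccne2. At the last base of the codon over the whole coding sequence they make up 71.6%, 67.8%, 49.8% and 38.6%. The mean differences in log2(FPKM + 1) were -1.86 for Aurkb, -1.81 for Ube2c, 1.13 for Ccnb1 and 1.24 for Ccne2.

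**Figure D2:**
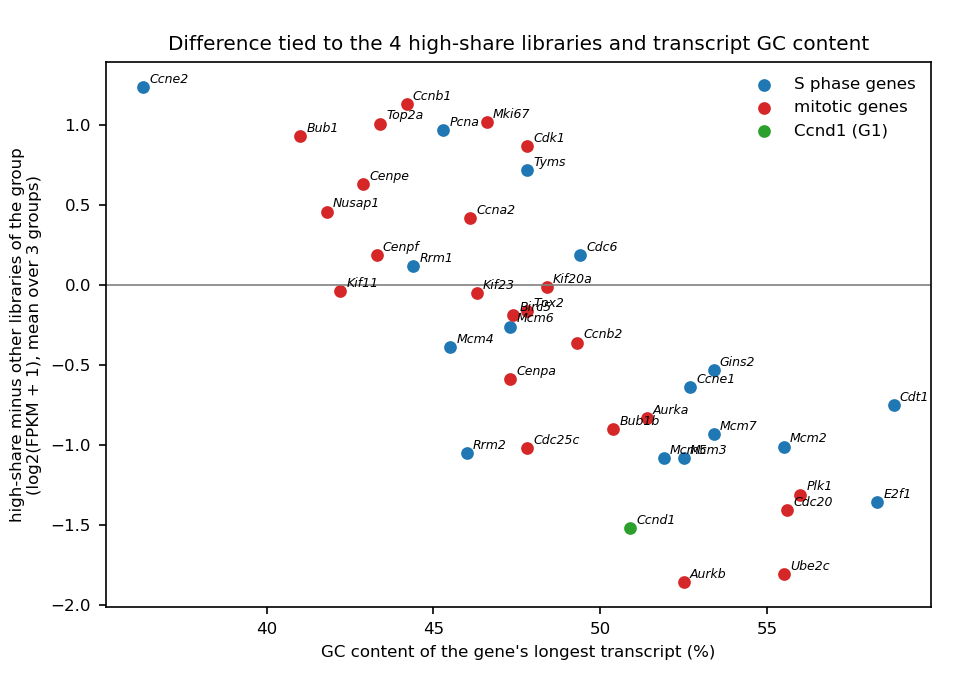
Mean difference in log2(FPKM + 1) between the high-share libraries and the other libraries of the same group, averaged over the 3 groups that hold one (vertical axis), against the GC content of the longest coding transcript in percent (horizontal axis), for the 16 S phase genes, the 23 mitotic genes and Ccnd1. Genes of both classes fall along one downward slope, from Ccne2 at 36.3% GC to Cdt1 at 58.8% GC.

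When the smooth trend on GC content was taken out of each library, an adjustment chosen after seeing the data, the median within-group SD of the 40 genes went from 0.47 to 0.28 in log2(FPKM + 1). It was smaller in 32 of the 40. Over all tested genes it went from 0.45 to 0.33 and was smaller in 10680 of 15795. Values with this trend removed stand beside several results below.

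Blocking CSF1R alone was not accompanied by a detectable change of any cell cycle gene. A gene is called here at a limma adjusted p under 0.05 over all tested genes and a fold of at least 1.5. In aCSF1R against Ctrl-IgG 0 of the 40 members were called, beside 0 of all 15813 genes (0%), of which 437 had an unadjusted p under 0.05, and no member was among these 437. The members' differences in log2(FPKM + 1) ran from -0.52 to 0.52, with a median of -0.12 over the S phase genes and -0.21 over the mitotic genes, beside 0.11 over all genes. The SE of a member's difference ran from 0.20 to 0.70, so differences of this size were not detectable with 3 libraries a group.

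Several replication genes were nevertheless lower in every aCSF1R library than in any Ctrl-IgG library. This held for Mcm4, Mcm6, Rrm1, Cdc6 and the kinesin gene Kif20a, 5 of 40 members, beside 6.04% of all tested genes. Cdc6, the licensing factor, was at 18, 33.1 and 20.0 FPKM in Ctrl-IgG, 17.0, 15.5 and 16.5 in aCSF1R, 11.6, 11.4 and 12.6 in BF10 and 11.7, 9.98 and 12.1 in IL-10-Fc. Rrm1, the large subunit of ribonucleotide reductase, was at 97.2, 146 and 94.7 FPKM in Ctrl-IgG, 87.7, 80.5 and 88.6 in aCSF1R, 63.4, 70.6 and 67.3 in BF10 and 60.6, 66.4 and 69.2 in IL-10-Fc. The aCSF1R libraries lay close together in both, and Ctrl-IgG replicate 2 was far above the rest. Without the 4 high-share libraries all members differed by -0.54 to 0.32. Ccne1, the cyclin E gene at chr7:38097984-38107534, was the 1 member that was higher in every aCSF1R library, beside 8.87% of all genes. It was at 10.4, 7.65 and 10.2 FPKM in Ctrl-IgG, 13.4, 13.7 and 12.4 in aCSF1R, 5.79, 7.79 and 11.4 in BF10 and 3.85, 3.04 and 7.38 in IL-10-Fc. Its difference of 0.45 ± 0.31 (SE) was not called, with an adjusted p of 0.958. E2f1, the activating E2F gene, had the highest difference, 0.52 ± 0.52 (SE). It was at 22.8, 7.70 and 21.6 FPKM in Ctrl-IgG, 23, 25.9 and 20.1 in aCSF1R, 7.64, 17.0 and 18.3 in BF10 and 7.06, 4.13 and 18 in IL-10-Fc, and its low value in Ctrl-IgG replicate 2 stands apart from the other 5 libraries of the pair.

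The comparison of BF10 with IL-10-Fc concerns the added CSF1R antibody. Of the 40 members 0 were called, beside 2 of all genes (0.0126%), and 5 members, Ccne1, Rrm2, Gins2, Ccnb2 and Aurka, were among the 828 genes with an unadjusted p under 0.05, each with a higher mean in BF10. The differences ran from -0.51 in Top2a to 1.09 in Ube2c, with medians of 0.56 over the S phase and 0.27 over the mitotic genes, beside 0.34 over all genes. No member had groups that did not overlap, beside 4.67% of all genes higher and 0.512% lower in BF10. IL-10-Fc holds 2 high-share libraries and BF10 holds 1. Ccnb2, a B cyclin, was at 63.1, 65.4 and 61.1 FPKM in Ctrl-IgG, 58.6, 61.0 and 68.2 in aCSF1R, 75.3, 106 and 79.6 in BF10 and 47.2, 42.5 and 83.7 in IL-10-Fc. Rrm2, the small subunit of ribonucleotide reductase, differed by 1.07 ± 0.47 (SE) with an adjusted p of 0.478. Between the libraries that are not high-share, IL-10-Fc replicate 3 and BF10 replicates 2 and 3, the members differed by -0.11 to 0.42 only. There the lone IL-10-Fc library was assumed to vary like the others.

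The 4 groups also allow BF10 to be set against the added log2 effects of aCSF1R and IL-10-Fc. The departure from that sum was called in 0 of 40 members, beside 1 of all genes (0.00632%), and 0 members and 412 genes had an unadjusted p under 0.05. The members' departures ran from -0.34 to 1.33. Since the components lie on different sides of the difference in Xist and Krt8, this departure holds that difference as well.

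Across the sides, the levels of most cell cycle genes overlapped. Those of Rrm2, Tpx2, Aurka, Cenpf, Ccnd1, Cdt1, Cdc6, Rrm1, Mcm5 and Mcm7 did not. The gap was narrow in some, as in Mcm7, at most 92.75 FPKM in IL-10-Fc and BF10 against at least 93.15 FPKM. The share of all tested genes that separate the sides in this way was not counted, so these separations have no background. The 4 comparisons of IL-10-Fc or BF10 with Ctrl-IgG or aCSF1R share libraries, so their results are set side by side and are not independent. In IL-10-Fc against Ctrl-IgG 1 member was higher and 13 were lower (32.5% of members), beside 10.1% and 23.6% of all tested genes. In BF10 against Ctrl-IgG 2 were higher and 5 lower (12.5%), beside 11.8% and 13.2%. In IL-10-Fc against aCSF1R 2 were higher and 12 lower (30.0%), beside 11.0% and 31.2%. In BF10 against aCSF1R 2 were higher and 4 lower (10.0%), beside 11.0% and 14.0%. The shares of lower members were thus near the background in all but the first comparison. Scaling by median-of-ratios size factors, which moved the median of all genes from -0.39, -0.12, -0.51 and -0.21 in these 4 comparisons to values between -0.08 and 0.00, gave 3 higher and 8 lower, 2 and 4, 7 and 11, and 5 and 4 members. Over all tested genes it gave 2534 higher and 2679 lower, 2218 and 2112, 2865 and 3121, and 2071 and 2061, in place of 1597 and 3729, 1859 and 2082, 1732 and 4937, and 1743 and 2212. Single libraries moved these counts, and no count of all genes is given beside the ones that follow. The 14 members called in IL-10-Fc against Ctrl-IgG became 6 without IL-10-Fc replicate 1 or 2, 8 without Ctrl-IgG replicate 1 or 3, and 25 without IL-10-Fc replicate 3, the one IL-10-Fc library that is not high-share. The 14 in IL-10-Fc against aCSF1R became 7 without IL-10-Fc replicate 1 or 2, 8 without aCSF1R replicate 1 or 2 and 22 without IL-10-Fc replicate 3. The 7 in BF10 against Ctrl-IgG became 3 without BF10 replicate 2, and the 6 in BF10 against aCSF1R became 3 without aCSF1R replicate 1 or 2 or BF10 replicate 1.

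The S phase genes had lower median differences than the mitotic genes. In IL-10-Fc against Ctrl-IgG 9 of 16 S phase genes were lower and 0 higher (56.2%), beside 23.6% of all genes lower, with a median of -0.94, and 4 of 23 mitotic genes were lower and 1 higher (17.4% lower), with a median of -0.45, beside -0.39 over all genes. With median-of-ratios scaling 5 of the 16 S phase genes were lower (31.2%), beside 2679 of all 15813 tested genes. The median was then -0.50 over the S phase genes and 0.04 over the mitotic genes. In BF10 against Ctrl-IgG the medians were -0.58 over the S phase and -0.17 over the mitotic genes, beside -0.12, and in BF10 against aCSF1R -0.54 and 0.05, beside -0.21. The mean log2(FPKM + 1) of the S phase genes minus that of the mitotic genes was 0.19, -0.02 and 0.27 in Ctrl-IgG and 0.23, 0.23 and 0.14 in aCSF1R. In BF10 the values were -0.25, -0.32 and 0.00, and those of IL-10-Fc were -0.35, -0.51 and -0.19. The sides overlapped in 1 pair of libraries, Ctrl-IgG replicate 2 and BF10 replicate 3. With the GC trend removed they did not, at 0.10 to 0.21 against -0.37 to -0.07. No test was made of this score, and treatment and side cannot be told apart in it.

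Ccnd1, cyclin D1, at chr7:144929931-144939925, had the largest rise of all members. It was at 105, 39.7 and 96.3 FPKM in Ctrl-IgG, 78.2, 69.7 and 60.9 in aCSF1R, 237, 536 and 449 in BF10 and 107, 111 and 499 in IL-10-Fc. The 3 BF10 libraries and IL-10-Fc replicate 3 lay above all the others by more than 2-fold, and IL-10-Fc replicates 1 and 2, both high-share, lay just above the highest Ctrl-IgG library. The difference was 2.36 ± 0.58 (SE) in BF10 against Ctrl-IgG (5.15-fold, adjusted p = 0.0124) and 2.46 ± 0.58 (SE) against aCSF1R (5.5-fold, adjusted p = 0.0105). The call against Ctrl-IgG was lost without BF10 replicate 2, where the difference was 2.13, and over the alternatives the difference ran from 1.92 to 2.71. IL-10-Fc differed by 1.28 from Ctrl-IgG (adjusted p = 0.11) and by 1.38 from aCSF1R (adjusted p = 0.0754), which was not called, but both were called with the GC trend removed, at 1.76 and 2.00, and without the high-share libraries, at 2.30 and 2.83. The summed simple epithelium, fibroblast, macrophage and neutrophil markers differed between the sides too, and Krt8 was among the genes that defined them. Whether any of these cells bears on the level of Ccnd1 was not tested.

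Among the genes of S phase entry, both cyclins E were lower in all 4 comparisons, but they were not called alike. Ccne1 fell in IL-10-Fc against aCSF1R, with a difference of -1.37 ± 0.31 (SE) (adjusted p = 0.00577) that was called under all 22 alternatives. Against Ctrl-IgG its difference of -0.92 (adjusted p = 0.0407) was called under 7 of the 22, and not with median-of-ratios scaling or the GC trend removed (-0.51 and -0.39). Ccne2, the other E cyclin and the member with the lowest GC content, was at 21.9, 53.5 and 19.9 FPKM in Ctrl-IgG, 21.6, 18.6 and 23.8 in aCSF1R, 15.2, 6.47 and 9.67 in BF10 and 21.1, 16.3 and 5.65 in IL-10-Fc. The IL-10-Fc and BF10 libraries that are not high-share lay at 5.65 to 9.67 FPKM, below all others. Ccne2 was not called in any of the 4 comparisons but was called in all 4 with the GC trend removed, at -1.17 and -0.98 in BF10 and at -1.10 and -0.91 in IL-10-Fc against Ctrl-IgG and aCSF1R. Without the high-share libraries these differences were -1.29 and -1.32 in BF10 and -1.72 and -1.74 in IL-10-Fc. E2f1 was called in none.

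Of the licensing genes, Cdt1, which brings the helicase to origins, fell in 3 of the 4 comparisons. Cdt1 was at 71.9, 48.3 and 81.0 FPKM in Ctrl-IgG, 77.1, 79.2 and 72.6 in aCSF1R, 24.5, 37.8 and 44.4 in BF10 and 28.9, 15.8 and 40.3 in IL-10-Fc. Every library of IL-10-Fc and BF10 lay below every library of the other groups. The difference was -1.49 ± 0.34 (SE) in IL-10-Fc against aCSF1R (adjusted p = 0.00618), -1.28 against Ctrl-IgG (adjusted p = 0.015) and -1.12 in BF10 against aCSF1R (adjusted p = 0.0339). In BF10 against Ctrl-IgG it was -0.90 (adjusted p = 0.0771). The first call held under all 22 alternatives. The second was lost without Ctrl-IgG replicate 1 or 3 or IL-10-Fc replicate 2 and with only the 2 groups compared in the fit. The third was lost without any aCSF1R library or BF10 replicate 1 or 2, on rescaling to TPM and with all genes above 0 tested, and the differences were -1.57 to -0.80 and -1.30 to -0.84 over the alternatives. Cdc6 fell in IL-10-Fc and BF10 against Ctrl-IgG, with differences of -0.96 and -0.89 (adjusted p = 0.009 and 0.0166), and was called in neither with median-of-ratios scaling, at -0.50 and -0.84, or with only the 2 groups compared. The first was also lost with the GC trend removed, at -0.52, and the second without BF10 replicate 2. Gins2, of the GINS complex that completes the helicase, fell in IL-10-Fc, with differences of -0.81 from Ctrl-IgG and -0.87 from aCSF1R (adjusted p = 0.0245 and 0.0152). Both Gins2 calls were lost with the GC trend removed, where the differences were -0.27 and -0.09, and without IL-10-Fc replicate 1 or 2, among other alternatives.

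The 6 subunits of the MCM2-7 ring, which work as one complex, were not alike. Mcm5 was at 122, 91.4 and 124 FPKM in Ctrl-IgG, 122, 116 and 120 in aCSF1R, 37.7, 81.0 and 83.4 in BF10 and 24.6, 19.1 and 74.2 in IL-10-Fc. It fell in IL-10-Fc, with differences of -1.73 ± 0.45 (SE) from Ctrl-IgG and -1.83 ± 0.45 (SE) from aCSF1R (adjusted p = 0.0136 and 0.00906). Without the high-share libraries these were -0.72 and -0.68 and still called, but the first was lost when IL-10-Fc replicate 1 or 2 alone was left out or only the 2 groups were compared. Mcm6 was at 74.1, 75.6 and 71.4 FPKM in Ctrl-IgG, 64.9, 57.3 and 64.6 in aCSF1R, 89.1, 106 and 94.7 in BF10 and 80.2, 51.4 and 103 in IL-10-Fc. The 3 BF10 libraries and IL-10-Fc replicates 1 and 3 lay above all Ctrl-IgG and aCSF1R libraries, and IL-10-Fc replicate 2 lay below them all. Its difference was not called in any of the 4 comparisons, and with the GC trend removed it was called as higher against aCSF1R, at 0.69 in IL-10-Fc and 0.78 in BF10. The same was true with median-of-ratios scaling (0.90 and 0.82) and without the high-share libraries (0.72 and 0.68). Mcm2 and Mcm7 fell in IL-10-Fc, with differences of -1.25 and -1.32 from Ctrl-IgG and -1.38 and -1.30 from aCSF1R. Those from Ctrl-IgG were still called with the GC trend removed and those from aCSF1R were not, and all 4 were lost without IL-10-Fc replicate 1 or 2, among other alternatives. Mcm3 and Mcm4 were called in none. Mcm5 has 51.9% GC and Mcm6 47.3%, and Mcm6 stayed the highest of the 6 with the GC trend removed.

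Nucleotide supply gave the largest fall of all members. Rrm2, at chr12:24708241-24714146, was at 246, 199 and 219 FPKM in Ctrl-IgG, 203, 187 and 164 in aCSF1R, 32.1, 62.4 and 80.9 in BF10 and 19.5, 14.0 and 60.1 in IL-10-Fc. The highest value of IL-10-Fc and BF10, 80.9 FPKM, was below the lowest of the other groups, 164 FPKM. Rrm2 fell 8.36-fold in IL-10-Fc and 3.99-fold in BF10 against Ctrl-IgG, with a log2 difference of -3.06 ± 0.47 (SE) in IL-10-Fc (adjusted p = 0.000744 and 0.01), and 6.98-fold and 3.33-fold against aCSF1R (adjusted p = 0.00119 and 0.0205). The first 3 were called under all 22 alternatives, and the BF10 difference from aCSF1R was lost on rescaling to TPM and without aCSF1R replicate 1 or 2 or BF10 replicate 1. Its partner Rrm1 differed far less, by -0.75 in IL-10-Fc and -0.71 in BF10 against Ctrl-IgG (adjusted p = 0.0139 and 0.0220), and neither call was kept with the GC trend removed, without Ctrl-IgG replicate 2 or without the high-share libraries, among other alternatives. Tyms, thymidylate synthase, went the opposite way. It was at 57.3, 95.3 and 50.4 FPKM in Ctrl-IgG, 53.3, 48.5 and 58.4 in aCSF1R, 111, 75.6 and 72.0 in BF10 and 136, 127 and 76.7 in IL-10-Fc. Every aCSF1R library lay below every IL-10-Fc library, and the difference of 1.03 ± 0.30 (SE) was called (adjusted p = 0.0193). Without the high-share libraries it was 0.52 and not called, and the call was also lost without aCSF1R replicate 1 or 2 or IL-10-Fc replicate 1 or 2, among other alternatives.

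**Figure D3:**
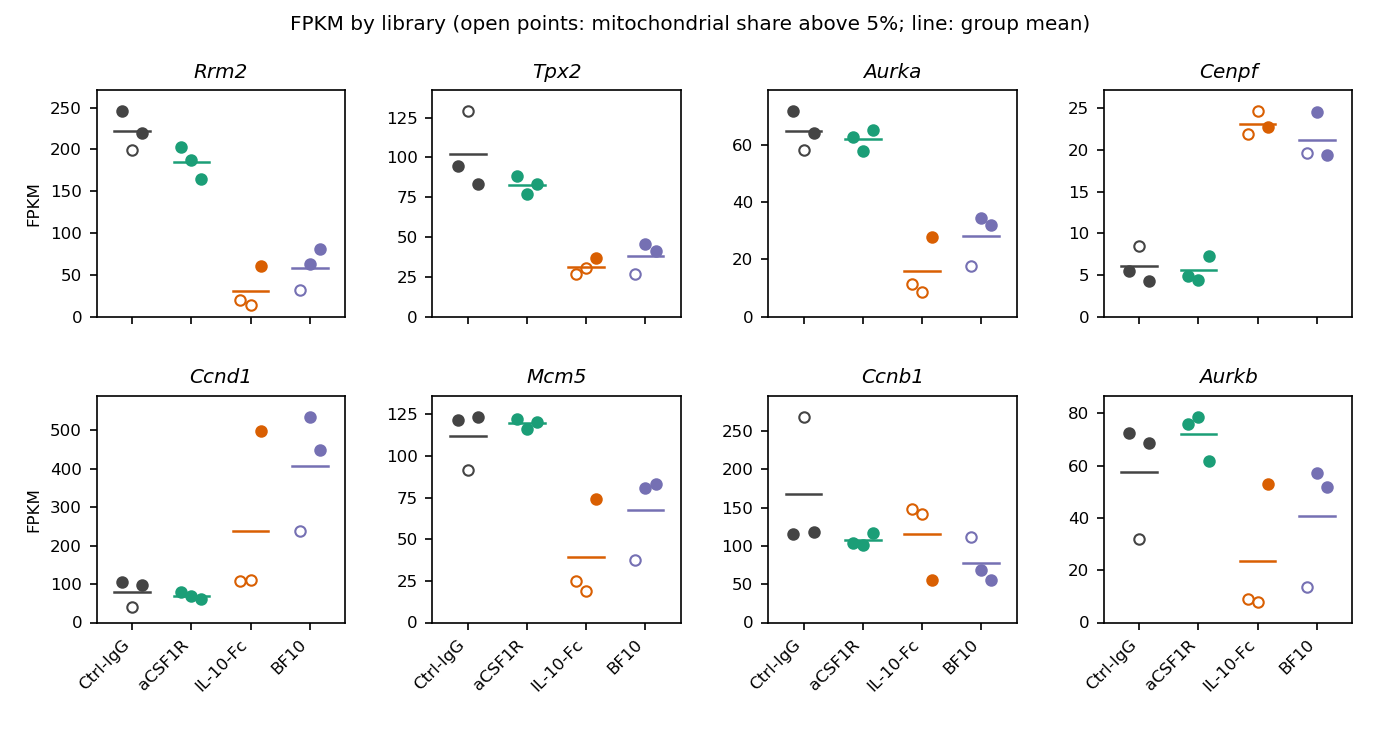
FPKM of 8 members in each library by group on linear axes that start at 0, with open points for the 4 libraries whose mitochondrial share is above 5% and lines for the group means of 3 libraries. In Rrm2, Tpx2, Aurka and Cenpf the sides do not overlap, nor, by narrower gaps, in Ccnd1 and Mcm5. In Ccnb1 and Aurkb the open points separate from the filled ones on opposite sides.

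Among the mitotic genes, Cenpf rose in all 4 comparisons. Cenpf, which encodes a large kinetochore and nuclear matrix protein, lies at chr1:189640606-189688086 and was at 5.42, 8.48 and 4.29 FPKM in Ctrl-IgG, 4.87, 4.42 and 7.31 in aCSF1R, 19.6, 24.6 and 19.4 in BF10 and 21.9, 24.7 and 22.8 in IL-10-Fc. The lowest IL-10-Fc or BF10 library, at 19.4 FPKM, was above the highest Ctrl-IgG or aCSF1R library, at 8.48 FPKM in Ctrl-IgG replicate 2. Its rise was 3.52-fold in IL-10-Fc and 3.22-fold in BF10 against Ctrl-IgG (adjusted p = 0.000488 and 0.001) and 3.75-fold and 3.44-fold against aCSF1R (adjusted p = 0.000343 and 0.000743). Each of the 4 calls was kept under all 22 alternatives. Cenpe, the kinetochore motor, was at 31.5, 58.2 and 31.1 FPKM in Ctrl-IgG, 34.5, 30.2 and 31.1 in aCSF1R, 39.9, 36.6 and 27.7 in BF10 and 51.1, 48.9 and 30.5 in IL-10-Fc. It was called in none of the comparisons, with differences from -0.16 to 0.40. Cenpa, the centromeric histone H3 variant, was also called in none, with differences from 0.13 to 0.48, but with median-of-ratios scaling it was called as higher in IL-10-Fc against Ctrl-IgG and aCSF1R (0.63 and 0.76) and in BF10 against aCSF1R (0.66). With the GC trend removed it was called as higher in BF10 against Ctrl-IgG and aCSF1R (0.61 and 0.63).

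The spindle partners Tpx2 and Aurka both fell in all 4 comparisons. Tpx2, which activates Aurora A on spindle microtubules, was at 94.4, 129 and 83.1 FPKM in Ctrl-IgG, 88.6, 76.9 and 83.5 in aCSF1R, 26.8, 45.5 and 41.0 in BF10 and 26.6, 30.7 and 36.8 in IL-10-Fc. Aurka, which encodes Aurora A, was at 71.9, 58.2 and 64.2 FPKM in Ctrl-IgG, 62.8, 57.7 and 65.3 in aCSF1R, 17.7, 34.6 and 32.0 in BF10 and 11.5, 8.55 and 27.8 in IL-10-Fc. In both, every IL-10-Fc and BF10 library lay below every Ctrl-IgG and aCSF1R library. Tpx2 fell 3.16-fold in IL-10-Fc and 2.68-fold in BF10 against Ctrl-IgG (adjusted p = 0.000603 and 0.00194) and 2.61-fold and 2.21-fold against aCSF1R (adjusted p = 0.00162 and 0.00632), and each call held under all 22 alternatives. Aurka fell 4.34-fold and 2.34-fold against Ctrl-IgG (adjusted p = 0.00174 and 0.0352) and 4.16-fold and 2.25-fold against aCSF1R (adjusted p = 0.00190 and 0.0431). Both Aurka calls in IL-10-Fc were kept under all 22 alternatives. The BF10 calls were lost on rescaling to TPM, with all genes above 0 tested and when any 1 library of the 2 groups compared was left out, among other alternatives, with differences of -1.42 to -0.94 against Ctrl-IgG and -1.36 to -0.88 against aCSF1R over all alternatives.

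Of Cdk1, its cyclins and Cdc25c none was called across the sides with all libraries and no adjustment. Cdk1 was at 194, 329 and 177 FPKM in Ctrl-IgG, 171, 160 and 207 in aCSF1R, 276, 158 and 153 in BF10 and 302, 305 and 154 in IL-10-Fc. Ccna2, cyclin A, ranged from 73.9 to 133 FPKM over all 12 libraries. Mki67, Top2a, Ccna2, Cdk1, Ccnb1 and Ccnb2 were called in none of the 4 comparisons, but Ccnb2, at 0.45 in BF10 against aCSF1R, was called there with the GC trend removed (0.64) and with median-of-ratios scaling (0.65). Mki67 and Top2a were higher by 1.03 and 0.98 in IL-10-Fc against aCSF1R (adjusted p = 0.0623 and 0.0627), called with the GC trend removed at 1.39 and 1.08, but were at 0.32 and 0.27 without the high-share libraries. Ccnb1 differed from Ctrl-IgG by -0.54 in IL-10-Fc and -1.03 in BF10 (adjusted p = 0.347 and 0.112) and was called without the high-share libraries in both, at -1.05 and -0.91. Cdc25c, the phosphatase that activates Cdk1, was at 14.6, 11.8 and 15.4 FPKM in Ctrl-IgG, 15.4, 14.3 and 12.8 in aCSF1R, 5.63, 13.9 and 13.0 in BF10 and 4.06, 4.16 and 14.7 in IL-10-Fc. Its 3 high-share values in IL-10-Fc and BF10 were 4.06 to 5.63 FPKM, and the other 9 libraries lay between 11.8 and 15.4.

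Calls made with all libraries in the passenger complex, the checkpoint and the destruction machinery were not kept without the high-share libraries. Aurkb and Ube2c fell in IL-10-Fc against aCSF1R, with differences of -2.11 ± 0.70 and -2.01 ± 0.68 (SE) (adjusted p = 0.0331 and 0.0352). Both stayed called with the GC trend removed (-1.38 and -1.16) and with median-of-ratios scaling (-1.51 and -1.39). Without the high-share libraries the differences were -0.43 and -0.45 and not called. Both calls were lost without any 1 aCSF1R library or IL-10-Fc replicate 1 or 2, among other alternatives. From Ctrl-IgG, Ube2c differed by -1.75 in IL-10-Fc (adjusted p = 0.0686), called with the GC trend removed at -1.21. That difference was -0.61 without the high-share libraries and was called there, although it was not called with all libraries. Bub1b, the checkpoint kinase BubR1, fell in IL-10-Fc, with differences of -1.21 from Ctrl-IgG and -1.34 from aCSF1R (adjusted p = 0.0343 and 0.019), which were -0.42 and -0.48 and not called without these libraries. Its relative Bub1, whose transcript has 41.0% GC against 50.4%, differed by -0.47 and -0.19 and was called without the high-share libraries at -0.83 and -0.90. Cdc20, the activator of the anaphase-promoting complex, and Birc5, the survivin subunit of the passenger complex, were called in none. Kif20a, the cytokinesis kinesin, fell in IL-10-Fc against Ctrl-IgG, with a difference of -0.85 (adjusted p = 0.0205), a call lost without Ctrl-IgG replicate 2 or IL-10-Fc replicate 1 or 2, among other alternatives. Kif11, Kif23 and Nusap1, genes of spindle and midzone proteins, were called in none, with differences from -0.32 to 0.28 in the 4 comparisons.

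**Figure D4:**
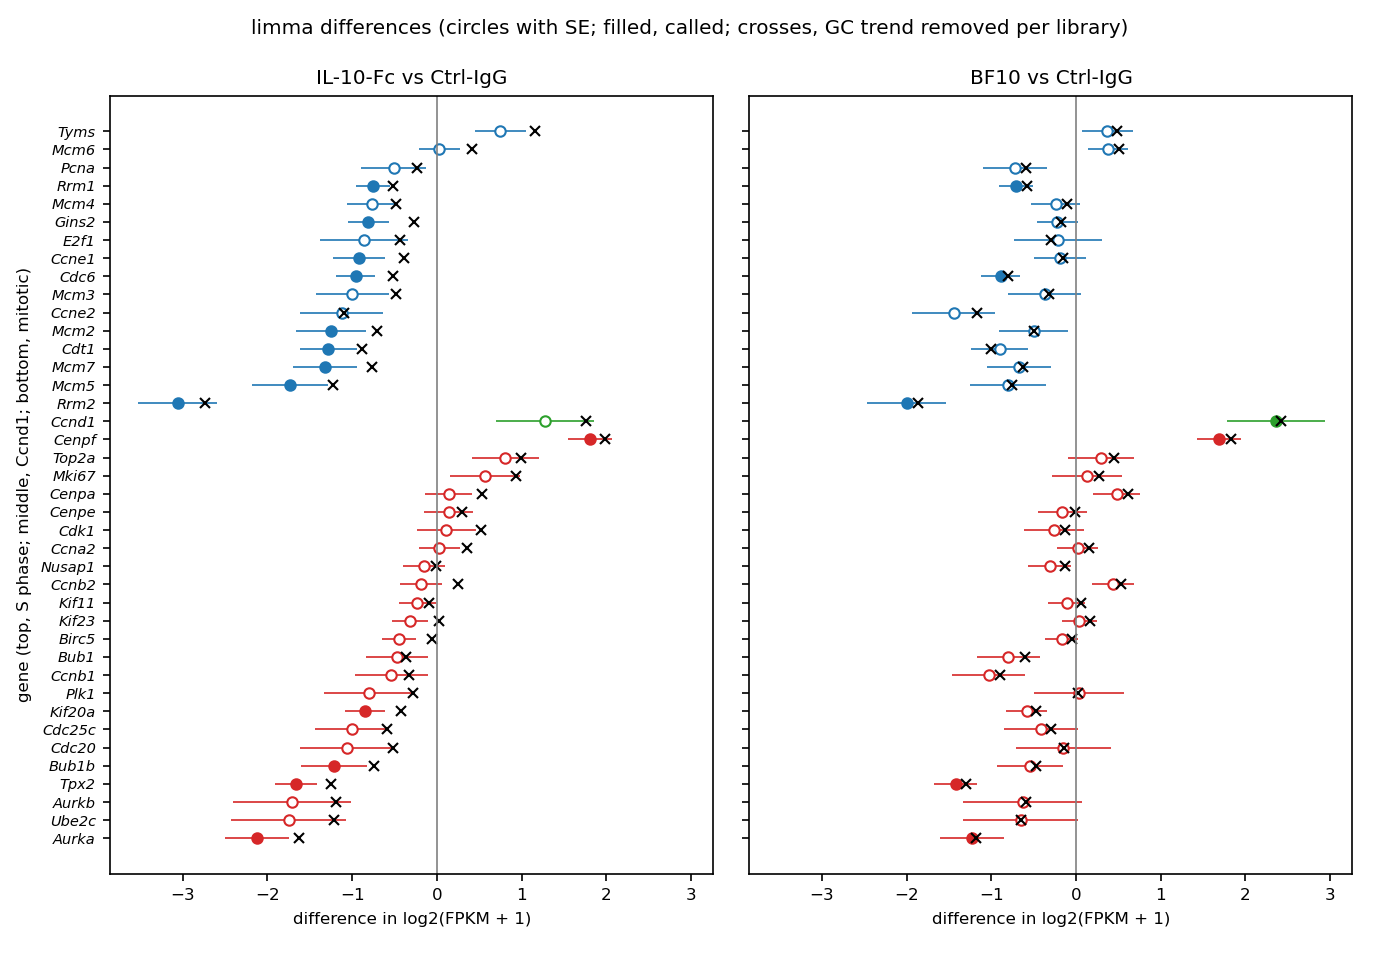
Difference in log2(FPKM + 1) between IL-10-Fc and Ctrl-IgG (left) and between BF10 and Ctrl-IgG (right) for each of the 40 genes, as circles with their SE, filled where called. Crosses give the same difference with the GC trend of each library removed, which lie to the right of most circles on the left, where Rrm2, Aurka and Tpx2 stay low and Cenpf and Ccnd1 stay high.

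Lists of other cell cycle genes gave the setting of these members, and no gene of them was called in aCSF1R against Ctrl-IgG or in BF10 against IL-10-Fc. For these lists, the CDK inhibitors included, only the fit with all libraries and no adjustment is given. The alternatives given for the members are not given for them. Their counts against Ctrl-IgG stand beside 10.1% of all tested genes higher and 23.6% lower in IL-10-Fc (median -0.39) and 11.8% higher and 13.2% lower in BF10 (median -0.12), and the shares of several lists are near these. Of 19 genes of the RB, E2F and DREAM complexes, 1 was higher and 8 lower in IL-10-Fc and 1 higher and 3 lower in BF10 against Ctrl-IgG, with medians of -0.80 and -0.27. Mybl2, the B-Myb factor that acts at CHR promoters, was at 126, 48.4 and 115 FPKM in Ctrl-IgG, 96.1, 93.0 and 82.3 in aCSF1R, 5.35, 17.5 and 32.0 in BF10 and 3.14, 1.61 and 16.2 in IL-10-Fc. It fell in IL-10-Fc and BF10 against Ctrl-IgG, with differences of -3.98 ± 0.72 and -2.52 ± 0.72 (SE) (adjusted p = 0.00191 and 0.0257), more than any member. Rbl1, the p107 pocket protein, fell there too, with differences of -1.82 and -1.16 (adjusted p = 0.000382 and 0.00657). Of 38 licensing and fork genes, 0 were higher and 13 lower in IL-10-Fc and 10 lower in BF10 against Ctrl-IgG, with medians of -0.87 and -0.58. Orc1, the origin recognition subunit, fell there, with differences of -1.83 and -1.53 (adjusted p = 0.000314 and 0.00125). Of 28 kinetochore and checkpoint genes, 9 and 7 were lower and 0 higher, with medians of -0.56 and -0.69. Of 31 other mitotic kinase, kinesin, cytokinesis and condensin genes, 6 were lower in IL-10-Fc and 0 in BF10 against Ctrl-IgG, and of 16 genes of the anaphase-promoting complex 2 were lower and 1 higher in each.

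The CDK inhibitors are the brakes of the cycle. Of 12 CDK inhibitor and quiescence genes, 1 was higher and 3 lower in IL-10-Fc and 2 higher and 0 lower in BF10 against Ctrl-IgG, beside the same shares of all genes. Cdkn2c, which encodes the CDK4 and CDK6 inhibitor p18, was at 12.1, 8.88 and 8.44 FPKM in Ctrl-IgG, 11.9, 10.2 and 13.7 in aCSF1R, 74.4, 54.8 and 53.9 in BF10 and 50.5, 75.8 and 65.9 in IL-10-Fc. All 6 IL-10-Fc and BF10 libraries lay above all others, with a rise of 2.59 ± 0.23 (SE) in IL-10-Fc and 2.52 ± 0.23 (SE) in BF10 against Ctrl-IgG (adjusted p = 3.34e-05 and 4.98e-05). The inhibitor genes Cdkn2a and Cdkn2b went the other way. They fell in IL-10-Fc against Ctrl-IgG by -1.50 and -0.75 (adjusted p = 0.0128 and 0.0249) but were not called in BF10. Both were at 5.45 FPKM or less in every library. Cdkn2d was higher in BF10 against Ctrl-IgG, at 0.71 (adjusted p = 0.0277). Cdkn1a, the p21 gene, was at 45.6, 16.6 and 54.4 FPKM in Ctrl-IgG, 34.7, 39.2 and 35.8 in aCSF1R, 13.0, 24.0 and 30.2 in BF10 and 8.99, 6.32 and 30.5 in IL-10-Fc. It was low in the high-share libraries and was called in none of the comparisons. Of the G1 cyclins, CDKs and activators, 7 of 12 were lower in IL-10-Fc and 2 in BF10 against Ctrl-IgG, among them Ccnd2, cyclin D2, with differences of -1.41 and -0.84 (adjusted p = 0.000845 and 0.0177).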

How the data were processed

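The 12 stranded mRNA libraries of tumour tissue were sequenced on an Illumina NextSeq 550, per the labels. The submitters' processing notes name STAR 2.7.5a, RSEM 1.3.3 and DESeq2 1.30.0 with GRCm38. The authors deposited FPKM values for 55401 genes, not scaled between libraries, and 4 tables of their own comparisons (means, fold changes and p-values), which were not used. FPKM carries no counts, so depth and counting error of single values are unknown. RSEM shares out reads that match several gene copies.

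Values were transformed to log2(FPKM + 1), which understates the changes of low genes, for 15813 genes that reached 1 FPKM in 3 or more libraries. limma 3.58.1 (R 4.3.3; trend) fitted all 12 libraries without covariates, with Benjamini-Hochberg adjustment over all tested genes. The script was tested on simulated data. Groups came from the treatment labels. All 40 members could be named, with values per library for a list of genes and those with extreme differences, and levels of Cdc6, Cdt1, Rrm1 and Cenpe were added after seeing the data. Of the other lists, the 4 called genes of largest change per list and comparison and the CDK inhibitors could be named. Members and lists were chosen with earlier results of these data known. Alternatives covered scaling, pseudocount (0.1), filter, samples, covariates and, added after seeing the data, a term for the high-share libraries and the removal of a lowess GC trend. Sequences came from RefSeq (GRCm38.p6) and GENCODE M21.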

Additional observations from a re-analysis of the deposited data

How the results depend on the processing

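The count of members called stayed at 0 under every alternative run in aCSF1R against Ctrl-IgG, in BF10 against IL-10-Fc and for the departure of BF10 from additive effects. Elsewhere it moved by over 1.5 times under these settings. In IL-10-Fc against Ctrl-IgG (14 members) it was 4 with only the 2 groups compared in the fit, 23 with a term for the code in the titles (1 to 4 against 5 to 7) and 24 with a term for the high-share libraries. In BF10 against Ctrl-IgG (7 members) it was 18 with the FPKM sum as a covariate, 11 without the 4 high-share libraries, 16 with a term for them and 11 with the GC trend removed. In IL-10-Fc against aCSF1R (14 members) it was 22 with the title code term. In BF10 against aCSF1R (6 members) it was 3 on rescaling to TPM, 13 with the FPKM sum, 10 with the title code term, 12 without the high-share libraries, 12 with a term for them and 10 with the GC trend removed. Leaving out each library in turn gave 6 to 25, 3 to 10, 7 to 22 and 3 to 8 members in these 4 comparisons. No count of all genes is given beside these ranges. The cause was not tested. Calls over all tested genes moved too. In IL-10-Fc against Ctrl-IgG, 5326 became 2734, 6722 and 7534 under the settings named, in that order. In BF10 against Ctrl-IgG, 3941 became 6901 with the FPKM sum, 6856 with the high-share term and 5224 with the GC trend removed. In IL-10-Fc against aCSF1R, 6669 became 8248. In BF10 against aCSF1R, 3955 became 3259 (TPM), 6740 (FPKM sum), 5518 (title code), 6484 (high-share term) and 5206 (GC trend removed). Of the 41 calls of single members 17 held under all 22 alternatives and 0 changed sign. No paired analysis was possible because replicates were numbered by sample order. The code in the titles, whose meaning is not stated, is shared between groups only by BF10 replicate 2 and replicate 3 of both aCSF1R and IL-10-Fc (code 6), so only 1 library a group could be matched by it and Ctrl-IgG none. FPKM keeps no counts, so the precision that depth gives to a single value is unknown. Where leaving out libraries left a group with 1, it was assumed to vary like the other groups.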
